A study of Canis lupus familiaris with 5 samples.

Results

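The genes described are the semaphorins, plexins, netrins, netrin receptors, Slits and Robo receptors of the dog, measured in nuclei of cephalic vein. They were chosen by name alone: after removal of the number that the feature names carry at their end, features beginning with SEMA, PLXN, SLIT1, SLIT2, SLIT3, ROBO or UNC5 were taken, together with NTN1, NTN3, NTN4, NTNG1, NTNG2, DCC and NEO1. This gave 48 of the 35555 features. They comprised 20 semaphorins, 8 plexins, 3 Slits, 4 Robo receptors, 5 netrins, and 8 features named UNC5, DCC or neogenin. UNC50 was taken for its first letters only and is not a netrin receptor.

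Semaphorins, netrins and Slits are guidance ligands, some secreted and some held in the membrane, and were described first in growing axons. Semaphorins bind plexins, in most class 3 members with a neuropilin as coreceptor, while Slits bind Robo receptors and netrins bind DCC, neogenin and the UNC5 proteins. The receptors act on small GTPases and the actin skeleton, and in vessels they are known for their part in endothelial sprouting, in the cover of mural cells and in the movement of leukocytes.

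The study asked what the vein wall expresses before and after the steps of bypass grafting. All vein came from mongrel dogs labelled male, operated on under general anaesthesia with pentothal and isoflurane. The grafted vein (1 library, dog 1) had been distended at harvest, was joined to the carotid artery after systemic bivalirudin, and was taken at 24 h. Distended vein (2 libraries, dogs 1 and 2) was taken after saline holding papaverine and bivalirudin had been injected against an occluded outflow. Control vein (2 libraries, dogs 1 and 2) was a separate segment that was not distended. The graft group is thus 1 segment of 1 animal, whose spread is assumed in every test to equal that of the other groups, and the p-values measure only the spread between libraries of 2 dogs.

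Depth and makeup differed between the libraries. UMIs, counts of single captured RNA molecules, outside 4 dominant features, LOC119877772 to LOC119877775, numbered 10899093 in the graft, 1497654 and 279555 in distended dogs 1 and 2, and 499629 and 339404 in control dogs 1 and 2. Those 4 features took 2.98% of all UMIs in the graft, 38.5% and 26.5% in the distended libraries, and 70.4% and 61.4% in the controls. The levels below are therefore CPM, UMIs per 1000000 UMIs outside these 4 features. Of 6855 nuclei kept, those classed endothelial-like numbered 1063 in the graft, 195 and 160 in distended dogs 1 and 2, and 46 and 355 in control dogs 1 and 2. Fibroblast-like nuclei numbered 791 in the graft, 1212 and 50 in the distended libraries, and 49 and 389 in the controls. In control dog 1, 81.8% of the nuclei stayed unnamed. Most of them lay in a cluster with 10 endothelial markers whose leading genes included HBM, a haemoglobin gene. In the graft, an unnamed cluster of 261 nuclei held 3318674 of the 10899093 UMIs, with RPL15, RPL9 and ACKR1 among its leading genes. It had 0 and 10 nuclei in distended dogs 1 and 2 and 1 in each control. These UMIs count in whole-graft levels but not in endothelial-like ones, and their part in either was not tested. All 18 endothelial markers were detected in the endothelial-like nuclei of every library, and at least 14 of 16 fibroblast markers in the fibroblast-like nuclei. Of 14 smooth muscle markers in whole vein, 14 were detected in the graft, 14 and 7 in distended dogs 1 and 2, and 11 and 13 in control dogs 1 and 2. Any pair of libraries shared at most 2 barcodes.

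Of the 48 genes, 43 had 20 or more UMIs over the 5 libraries and 31 were detected in all 5. SLIT1 had 18 UMIs, NTNG1 11, SEMA5B 10, NTN3 1 and UNC5CL, a relative of UNC5C, 1. These 5 are given by count only. SEMA3G, NTNG2, UNC5A and UNC5D were also sparse, at no more than 10.7 CPM in whole vein in any library.

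**Figure D1:**
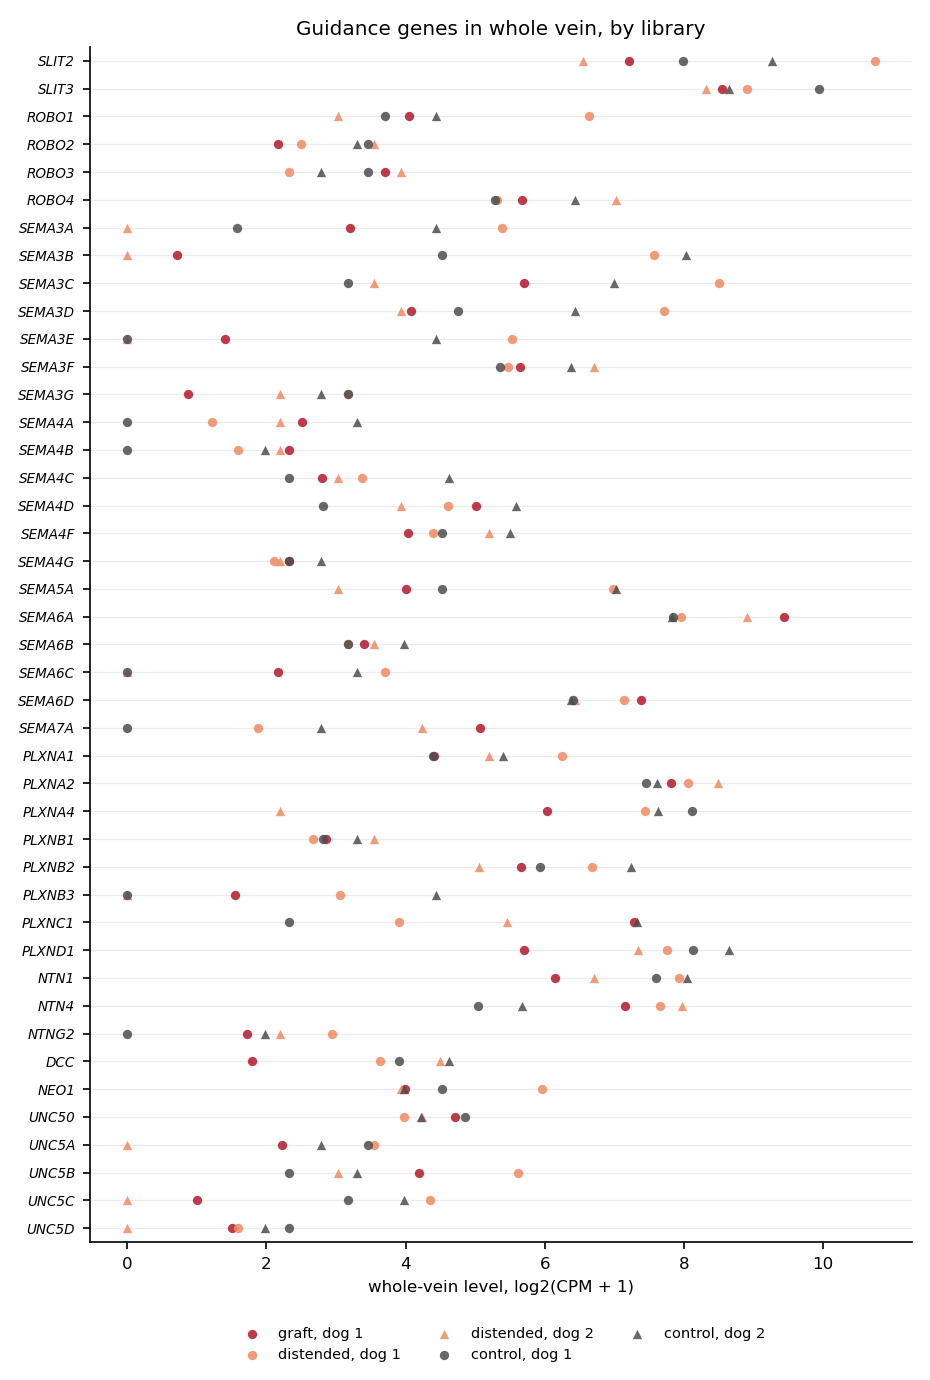
Whole-vein level of the 43 guidance genes with 20 or more UMIs, as log2(CPM + 1) on the horizontal axis, with 1 point per library (colour for the group, circles for dog 1 and triangles for dog 2). Levels are to be read along a row: in the NTN4 row the graft and both distended points lie right of both controls, and in the PLXND1 row the graft point lies left of all others.

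SLIT2 and SLIT3 were found in fibroblast-like, endothelial-like and smooth muscle-like nuclei. SLIT2, a secreted Robo ligand, had 147 CPM in whole graft, 1710 and 93.0 CPM in distended dogs 1 and 2, and 252 and 616 CPM in control dogs 1 and 2. The distended libraries spanned all the others, so the groups overlapped. Of the 2561 UMIs of SLIT2 in distended dog 1, 2034 lay in fibroblast-like nuclei, and 50.4% of those nuclei had at least 1 (95% exact interval 47.6% to 53.3%), against 17.4% of lymphatic endothelial-like nuclei in the same library. Median depth was 508 UMIs per fibroblast-like and 561 per lymphatic endothelial-like nucleus. After each nucleus was thinned to 200 UMIs, the shares were 31.0% of fibroblast-like and 6.67% of lymphatic endothelial-like nuclei. Lymphatic endothelial-like nuclei were the lower comparison, with 38 SLIT2 UMIs among 82227 in that library. Its endothelial-like nuclei held 176 among 213479, and its fibroblast-like nuclei had 2663 CPM. Smooth muscle-like nuclei carried SLIT2 as well, with 104 CPM in the graft, 1783 CPM in distended dog 1 and 999 CPM in control dog 1, from 7, 52 and 25 UMIs.

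SLIT3, also a secreted Robo ligand, had 371.5 CPM in whole graft, 478 and 318 CPM in distended dogs 1 and 2, and 987 and 401 CPM in control dogs 1 and 2. In the graft, 3156 of its 4049 UMIs were in endothelial-like nuclei, where 56.2% of nuclei had at least 1 (53.1% to 59.2%), against 7.84% of fibroblast-like nuclei. Graft nuclei had a median depth of 3597 UMIs if endothelial-like and 1804 if fibroblast-like. After thinning, the graft shares were 12.1% of endothelial-like and 1.64% of fibroblast-like nuclei. In distended dog 1 the order was the other way, with 24.7% of fibroblast-like and 8.72% of endothelial-like nuclei, and 9.09% and 3.08% after thinning. An unnamed cluster of 303 nuclei of distended dog 1, numbered 4, had 7 endothelial markers and 140 SLIT3 UMIs. With it and cluster 0 counted as endothelial-like, the SLIT3 level of that class in distended dog 1 was 357 CPM in place of 141 CPM, against 636 CPM in fibroblast-like nuclei.

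The Robo receptors were carried by different classes. ROBO4, the endothelial member of the family, had 65.9 CPM in endothelial-like nuclei of the graft, 117 and 161 CPM in those of distended dogs 1 and 2, and 23.6 and 172 CPM in those of control dogs 1 and 2. In fibroblast-like nuclei, ROBO4 had 6 UMIs in the graft and 0 in each of the other 4 libraries. ROBO1, a Slit receptor of many tissues, had 48.2 CPM in fibroblast-like nuclei of the graft, 173 and 0 CPM in those of distended dogs 1 and 2, and 0 and 55.6 CPM in those of control dogs 1 and 2. A count of 0 allowed up to 109 CPM in distended dog 2 and up to 338 CPM in control dog 1, the level of 3 UMIs. ROBO2 and ROBO3 stayed between 3.49 and 14.3 CPM in whole vein, with 38 and 131 UMIs in the graft and at most 7 elsewhere.

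Class 3 semaphorins are secreted. In distended dog 1, fibroblast-like nuclei held 265 of 283 UMIs of SEMA3B, 535 of 541 of SEMA3C, 254 of 312 of SEMA3D and 68 of 68 of SEMA3E. In the graft they held 1 of 7, 315 of 559, 67 of 174 and 12 of 18 UMIs of these genes, in the same order. SEMA3C had 183 CPM in fibroblast-like nuclei of the graft, 700.4 and 72.8 CPM in those of distended dogs 1 and 2, and 113 and 380 CPM in those of control dogs 1 and 2. Endothelial-like nuclei had 43 UMIs of SEMA3C in the graft, 9.61 CPM, and 0 in the other libraries. Neutrophil-like nuclei of the graft had 187 UMIs of SEMA3C, 161 CPM. Within fibroblast-like nuclei of distended dog 1, SEMA3C reached 1095 CPM in the cluster led by FNDC1, COL28A1 and ITGA11, against 290.5 CPM in the cluster led by C7 and TRPM3 and 390 CPM in the cluster led by SCARA5. In control dog 2 the levels were 1043 CPM in the first of these clusters, 328 in the second and 242 in the third, from 17, 7 and 17 UMIs. SEMA3E, a ligand of PLXND1, had 55 of its 68 UMIs in distended dog 1 in that same FNDC1 cluster.

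SEMA3A and SEMA3D, with NTN1 and UNC5B, were also carried by lymphatic endothelial-like nuclei. This class had 121 nuclei in distended dog 1, 32 in control dog 2 and 5 or fewer elsewhere. Its absence from the graft depended on the clustering: the class had 65 graft nuclei at Leiden resolution 0.4, 70 without the 4 dominant features and 73 with the guidance genes among the variable genes. In the clustering used here, a cluster with 62 graft nuclei and PROX1 among its leading genes stayed unnamed because endothelial and lymphatic endothelial lists tied, and it held 30 graft UMIs of SEMA3A, 28 of SEMA3D, 23 of NTN1 and 19 of UNC5B. In lymphatic endothelial-like nuclei of distended dog 1, SEMA3A had 559 CPM from 46 UMIs, in 25.6% of nuclei (18.1% to 34.4%). Those of control dog 2 had 3 UMIs, 446 CPM. The class held 6732 UMIs outside the 4 dominant features in control dog 2, against 82227 in distended dog 1. SEMA3D in distended dog 1 had 535 CPM from 44 UMIs there, against 2 UMIs in control dog 2. In the same class NTN1, which codes for netrin 1, had 1313 CPM from 108 UMIs in distended dog 1. In control dog 2 it had 1485 CPM from 10 UMIs. UNC5B, a netrin receptor of vessels, had 669 CPM from 55 UMIs in distended dog 1 and 2 UMIs in control dog 2. At the depth of control dog 2, the few UMIs of SEMA3A, SEMA3D and UNC5B do not show a lower level than in distended dog 1. Endothelial-like nuclei of distended dog 1 held 0 UMIs of SEMA3A, 2 of SEMA3D, 33 of NTN1 and 3 of UNC5B, at a median depth of 628 UMIs per nucleus. No test was run in this class.

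**Figure D2:**
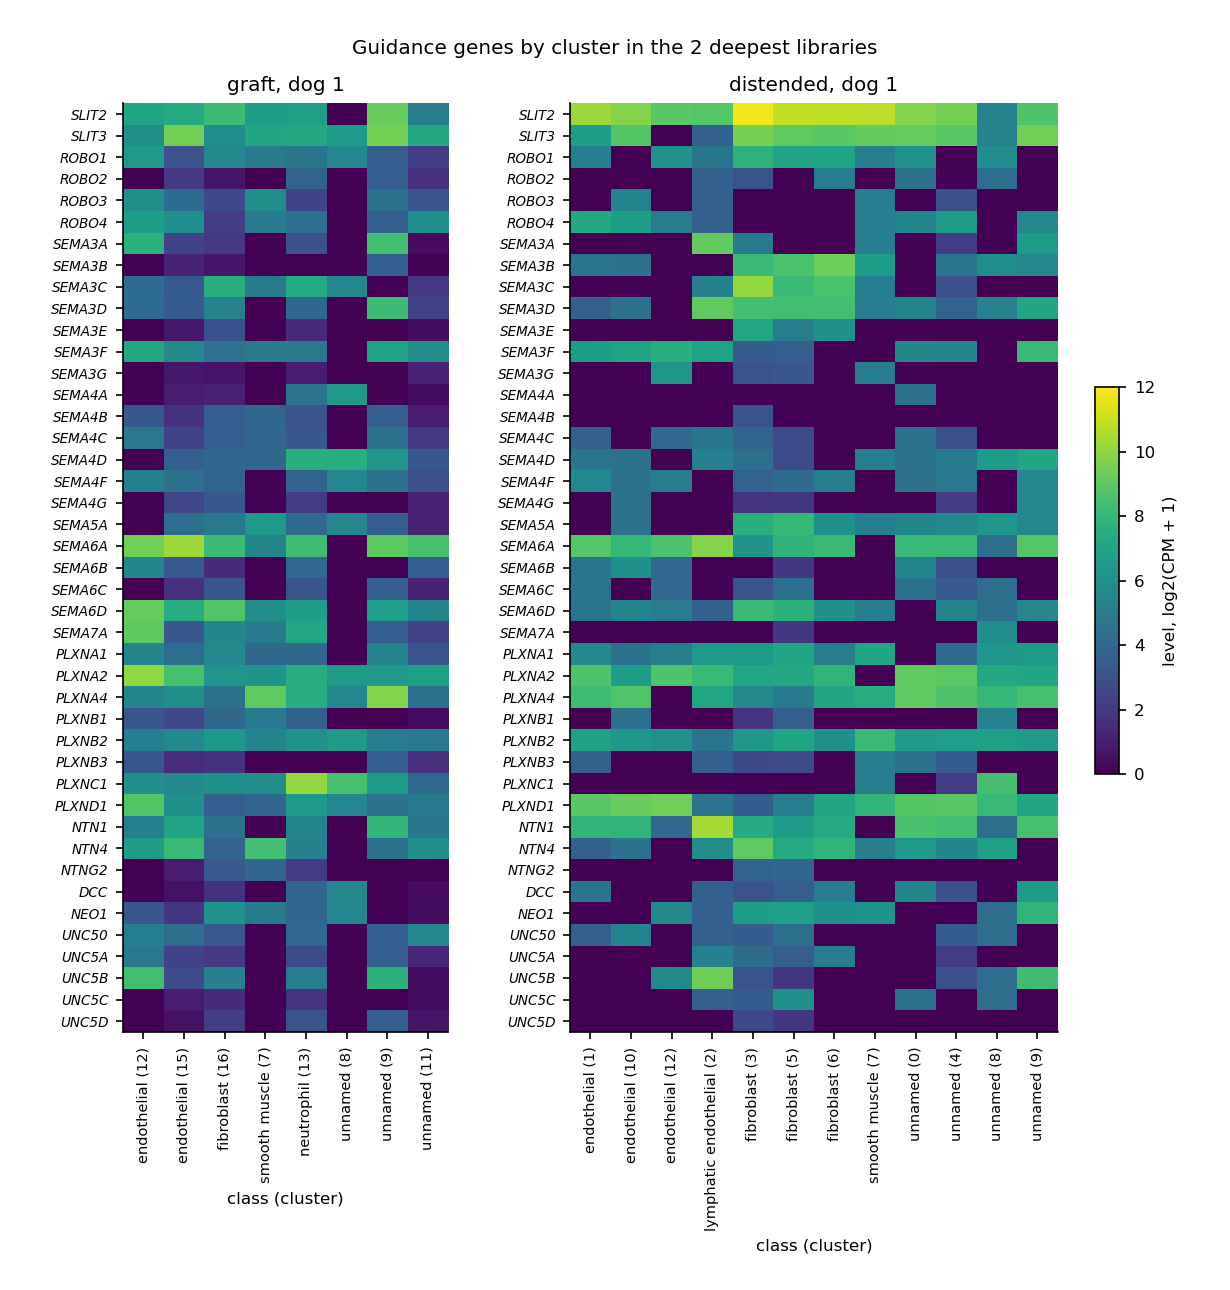
Level of the same 43 genes, log2(CPM + 1) by colour, in each cluster with 20 or more nuclei of the graft (left) and of distended dog 1 (right), with the class and the cluster number under each column. In distended dog 1 the column of lymphatic endothelial-like nuclei is bright for NTN1, UNC5B, SEMA3A and SEMA3D, and in the graft PLXNC1 is brightest in neutrophil-like nuclei.

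Among the membrane-bound semaphorins, SEMA6A, a ligand of class A plexins, had 5351 of its 7527 graft UMIs in endothelial-like nuclei. There 79.4% of nuclei had at least 1 UMI (76.8% to 81.8%), against 30.2% of fibroblast-like nuclei, and 18.2% against 5.82% after thinning. SEMA6D, also a plexin A ligand, had 422 CPM in fibroblast-like nuclei of the graft, 242 and 146 CPM in those of distended dogs 1 and 2, and 337.5 and 120.4 CPM in those of control dogs 1 and 2. The graft value lay above the other 4 but within the counting interval of control dog 1, which had 3 UMIs. SEMA4D and SEMA7A, both known from leukocytes, had 219 of 340 and 163 of 354 graft UMIs in neutrophil-like nuclei. SEMA7A also reached 520 CPM, from 60 UMIs, in the graft nuclei of the endothelial-like cluster led by DACH1 and BTNL9. SEMA5A had 15.05 CPM in whole graft, 125 and 7.15 CPM in distended dogs 1 and 2, and 22.0 and 129.6 CPM in control dogs 1 and 2, so that the distended and control values overlapped. SEMA4A, SEMA4B, SEMA4C, SEMA4F, SEMA4G, SEMA6B and SEMA6C had at most 44.2 CPM in whole vein in any library.

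Among the plexins, PLXNC1, the receptor of SEMA7A, had 1270 of its 1691 graft UMIs in neutrophil-like nuclei, at 1092 CPM. Of these nuclei, 75.3% had at least 1 UMI (71.0% to 79.2%), against 11.6% of fibroblast-like nuclei of the graft, and 22.7% against 2.15% after thinning. Median depth was 1363 UMIs per neutrophil-like nucleus and 1804 per fibroblast-like nucleus. In control dog 2, 42 of the 54 UMIs of PLXNC1 lay in 16 neutrophil-like nuclei. Those nuclei held 10030 UMIs outside the dominant features, against 1162540 in neutrophil-like nuclei of the graft. The PLXNC1 level of this class was thus higher in control dog 2 than in the graft. In distended dog 1, 18 of the 21 UMIs of PLXNC1 lay in an unnamed cluster led by TIMD4, F13A1, MRC1 and CD163. Neutrophil-like nuclei numbered 449 in the graft, 1 and 1 in the distended libraries, and 0 and 16 in the controls. Their cluster had 12 neutrophil and 10 macrophage and monocyte markers, and no neutrophil marker was among its 10 leading genes, which included PLXNC1 itself. With nuclei classed singly by markers, 180 graft nuclei were neutrophil-like, and at Leiden resolution 0.4 no cluster was, while 486 graft nuclei fell in a class named from T and NK cell markers. The name behind the PLXNC1, SEMA4D and SEMA7A values therefore depends on the clustering.

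PLXND1, an endothelial plexin, had 548 CPM in endothelial-like nuclei of distended dog 1, against 26.2 CPM in fibroblast-like nuclei of that library. PLXNA2 was present in both classes and in unnamed nuclei, at 384 CPM in endothelial-like and 76.1 CPM in fibroblast-like nuclei of the graft. PLXNA4 had 533 CPM in smooth muscle-like nuclei of the graft, 171 CPM in those of distended dog 1 and 559 CPM in those of control dog 1, from 36, 5 and 14 UMIs. In the graft, PLXNA4 also reached 876 CPM in an unnamed cluster of 62 nuclei led by SH3GL3, PROX1, MME and ANO4, which held 30 of the 89 graft UMIs of SEMA3A. PLXNB2 was spread over the classes, and PLXNA1, PLXNB1 and PLXNB3 had at most 74.8 CPM in whole vein in any library.

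Of the netrins and their receptors, NTN1 had 69.6 CPM in whole graft, 242 and 104 CPM in distended dogs 1 and 2, and 192 and 262 CPM in control dogs 1 and 2. The graft was the lowest of the 5 libraries for NTN1. NEO1, which codes for the netrin receptor neogenin, had 14.9 CPM in whole graft, 61.4 and 14.3 CPM in the distended libraries, and 22.0 and 14.7 CPM in the controls. It lay mostly in fibroblast-like nuclei, with 124 of 162 UMIs in the graft and 80 of 92 in distended dog 1, against 13 and 3 UMIs in endothelial-like nuclei. UNC5B had 64 graft UMIs in fibroblast-like and 64 in endothelial-like nuclei, and 38 of the endothelial-like ones were in the DACH1 cluster.

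The neuropilins NRP1 and NRP2 are coreceptors of class 3 semaphorins and belong to the wider pathway list. NRP1 had 111 CPM in whole graft, 337 and 172 CPM in distended dogs 1 and 2, and 200.1 and 262 CPM in control dogs 1 and 2. NRP2 had 121 CPM in whole graft, 132 and 96.6 CPM in distended dogs 1 and 2, and 210.2 and 159 CPM in control dogs 1 and 2. The graft was below every other library for NRP1 and below both controls for NRP2, and neither gene passed the test in any comparison.

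Distended against control vein was tested with edgeR's quasi-likelihood test on UMIs summed per library, with Benjamini-Hochberg adjustment over all genes tested. In whole vein, 0 of the 37 guidance genes tested passed an adjusted p of 0.05, as did 0.0% of all 13170 genes, and 1 of 37 had an unadjusted p under 0.05, against 1.41% of all genes. DESeq2 also called 0. The fold changes of the 37 genes had a median of -0.06 on the log2 scale, against 0.08 for all genes, and 18 of 37 were positive. NTN4, a secreted netrin of basement membranes, was the gene with the smallest p. It had 202 and 250.4 CPM in distended dogs 1 and 2, against 32.0 and 50.1 CPM in control dogs 1 and 2. Both distended libraries lay above both controls, with a log2 fold change of 2.38 (SE 0.67), an unadjusted p of 0.0060 and an adjusted p of 1.0. In whole-vein sums, fewer nuclei of a type and less RNA per nucleus cannot be told apart.

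Of the next 4 genes by p in that comparison, UNC5B, ROBO1 and PLXNC1 had groups that overlapped and PLXND1 did not. UNC5B had 48.1 and 7.15 CPM in distended dogs 1 and 2, and 4.00 and 8.84 CPM in control dogs 1 and 2 (log2 fold change 2.23, SE 1.18). ROBO1 had 98.8 and 7.15 CPM in the distended libraries and 12.01 and 20.6 CPM in the controls (1.77, SE 1.12). PLXND1 was lower in both distended libraries, with 216 and 161 CPM, than in the controls, with 278 and 401 CPM (-0.91, SE 0.66). PLXNC1 had 14.0 and 42.9 CPM in the distended libraries and 4.00 and 159 CPM in the controls (-1.72, SE 1.28). Each had an adjusted p of 1.0. The summed level of the 16 fibroblast markers was 11296 and 1470 CPM in distended dogs 1 and 2 and 1203 and 6252 CPM in control dogs 1 and 2, and its part in these values was not tested. Without the library of distended dog 1, SEMA3B and PLXNA4 were called lower in distended vein, at log2 fold changes of -11.8 and -6.21. They then rested on 0 and 1 UMIs in distended dog 2, and 1.72% of all 12155 genes tested were called in that fit, 0.708% lower.

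The NTN4 UMIs lay in different nuclei in the 2 distended dogs. In distended dog 1, 269 of 302 UMIs of NTN4 were in fibroblast-like nuclei (89.1%), 206 of them in the FNDC1 cluster. In distended dog 2, 63 of 70 were in endothelial-like nuclei. In the graft of dog 1, 1237 of 1548 were in endothelial-like nuclei (79.9%). Control dog 1 had 16 UMIs, with 11 in unnamed, 4 in endothelial-like and 0 in fibroblast-like nuclei. Control dog 2 had 17, with 5 in unnamed, 3 in endothelial-like and 7 in fibroblast-like nuclei. Of UMIs outside the 4 dominant features, endothelial-like nuclei held 4474388 of 10899093 in the graft. They held 213479 of 1497654 and 143097 of 279555 in distended dogs 1 and 2. In control dogs 1 and 2 they held 127142 of 499629 and 127995 of 339404. Fibroblast-like nuclei held 763877 and 27470 in distended dogs 1 and 2. The part of this makeup in the shares of NTN4 and SLIT3 was not tested. SLIT3 had 77.9% of its UMIs in endothelial-like nuclei of the graft, 4.19% and 86.5% in those of distended dogs 1 and 2, and 18.7% and 49.3% in those of control dogs 1 and 2. Clusters 0 and 4 stayed unnamed although their longest marker list was endothelial. With them counted as endothelial-like, a choice made after seeing the data, the SLIT3 shares were 77.9% in the graft, 27.4% and 88.8% in the distended libraries, and 91.1% and 69.1% in the controls. The NTN4 shares were then 79.9% in the graft, 6.95% and 92.9% in the distended libraries, and 81.3% and 41.2% in the controls. The control shares of both genes thus depend on these clusters, most in control dog 1, where NTN4 went from 4 to 13 of 16 UMIs. The NTN4 contrast between the 2 distended dogs does not depend on them.

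**Figure D3:**
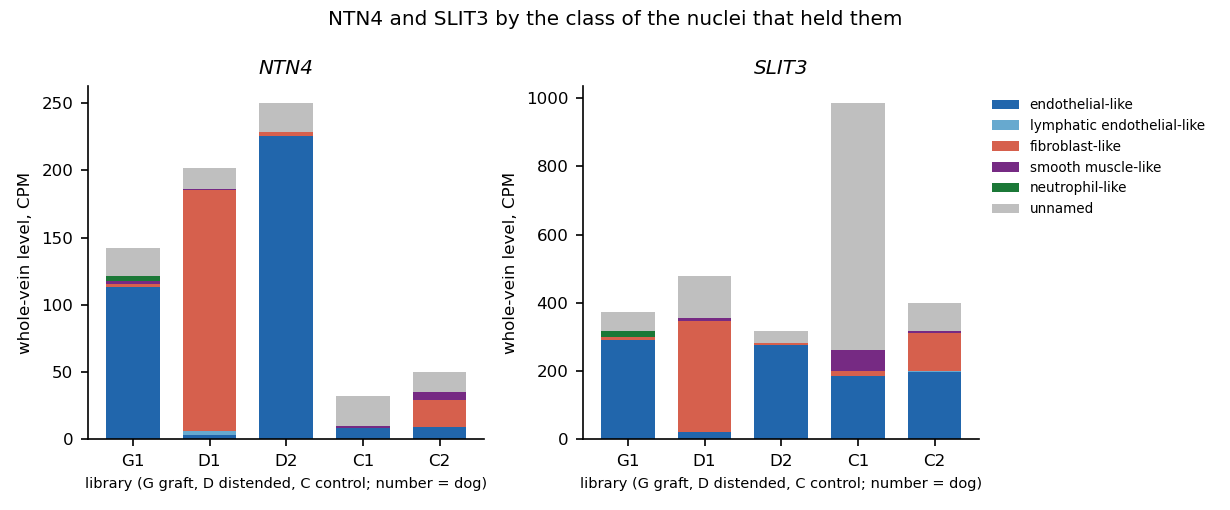
Whole-vein level of NTN4 (left) and SLIT3 (right) in CPM for each library, divided by the class of the nuclei that held the UMIs. Of the NTN4 bars, that of distended dog 1 is mostly fibroblast-like, while those of distended dog 2 and of the graft are mostly endothelial-like.

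In endothelial-like nuclei, 16 guidance genes were tested between distended and control vein and 0 passed, as did 0.0% of 7842 genes, while 1 of 16 had an unadjusted p under 0.05, against 3.42% of all genes. DESeq2 called 0, with 2 of 16 at an unadjusted p under 0.05. The median log2 fold change of the 16 was 0.06, against 0.00 for all genes. SEMA5A, a membrane-bound semaphorin, had 4.68 and 14.0 CPM in distended dogs 1 and 2, from 1 and 2 UMIs, and 15.7 and 172 CPM in control dogs 1 and 2, from 2 and 22 UMIs. The values of distended dog 2 and control dog 1 rested on 2 UMIs each and did not differ beyond counting error. The pooled counts were lower in distended vein by a ratio of 11.2 (95% counting interval 3.395 to 58.0, unadjusted edgeR p 0.020, adjusted p 1.0). The ratio was 6.73 without distended dog 1, 20.1 without distended dog 2 and 20.4 without control dog 1, while without control dog 2 there were 3 UMIs in distended and 2 in control nuclei and no fold can be given. With clusters 0 and 4 counted in, SEMA5A had 32.8 and 13.5 CPM in distended and 11.04 and 190 CPM in control dogs 1 and 2, and the groups overlapped. NTN4 had 18.7 and 440 CPM in distended dogs 1 and 2 and 31.5 and 23.4 CPM in control dogs 1 and 2, so the groups overlapped (log2 fold change 2.74, SE 1.24, adjusted edgeR p 1.0). UNC50 had 28.1 and 14.0 CPM in the distended libraries and 86.5 and 31.2 CPM in the controls (-1.63, SE 1.07). SEMA6A was higher in both distended libraries, with 384 and 776 CPM, than in the controls, with 78.7 and 305 CPM (1.35, SE 0.91). SLIT3 had 141 and 538 CPM in the distended libraries and 724 and 523 CPM in the controls, so the groups overlapped (-1.15, SE 0.87). Each of the 3 had an adjusted p of 1.0.

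Graft against control in endothelial-like nuclei gave 0 of 16 guidance genes past the adjusted threshold and 0.0% of 7842 genes, with 2 of 16 at an unadjusted p under 0.05, against 9.87% of all genes. DESeq2 called 0 of the 16, and had 3 at an unadjusted p under 0.05. The median log2 fold change was -0.76, against 0.07 for all genes, and 5 of 16 were positive. SEMA6A had 1196 CPM in the graft, 384 and 776 CPM in distended dogs 1 and 2, and 78.7 and 305 CPM in control dogs 1 and 2. The graft exceeded every other library, and the values of both distended libraries lay above those of both controls, although the counting intervals of distended dog 1 and control dog 2 overlapped. With the unnamed clusters 0 and 4 counted in, SEMA6A had 1196 CPM in the graft, 317 and 776 CPM in the distended libraries, and 239 and 233 CPM in the controls, control dog 1 then holding 655 nuclei in place of 46. In the class without those clusters, the graft's log2 fold change over control was 2.42 (SE 1.04, unadjusted edgeR p 0.042, adjusted p 0.501).

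NTN4 in endothelial-like nuclei had 276.5 CPM in the graft, against the 31.5 and 23.4 CPM of control dogs 1 and 2, with a log2 fold change of 3.10 (SE 1.35, adjusted edgeR p 0.501). With the dog as a block it was 4.22 (SE 1.24) and passed, at an adjusted p of 0.0399, beside 2.16% of all genes called in that fit. Of graft endothelial-like nuclei, 29.6% had an NTN4 UMI, against 2.40% of fibroblast-like nuclei, and 3.86% against 0.38% after thinning. PLXND1 was lower in the graft, with 73.3 CPM, than in control dogs 1 and 2, with 126 and 703 CPM (log2 fold change -2.72, SE 1.30, adjusted edgeR p 0.506). The graft value lay within the counting interval of control dog 1 (71.9 to 204 CPM). Counting in clusters 0 and 4 gave 287 and 677 CPM in these controls. SEMA6D had 180 CPM in the graft and 47.2 and 39.1 CPM in the controls (1.83, SE 0.92, adjusted p 0.516). SEMA5A had 18.6 CPM in the graft and 15.7 and 172 CPM in the controls, the first from 2 UMIs (-2.56, SE 1.36, adjusted p 0.531).

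**Figure D4:**
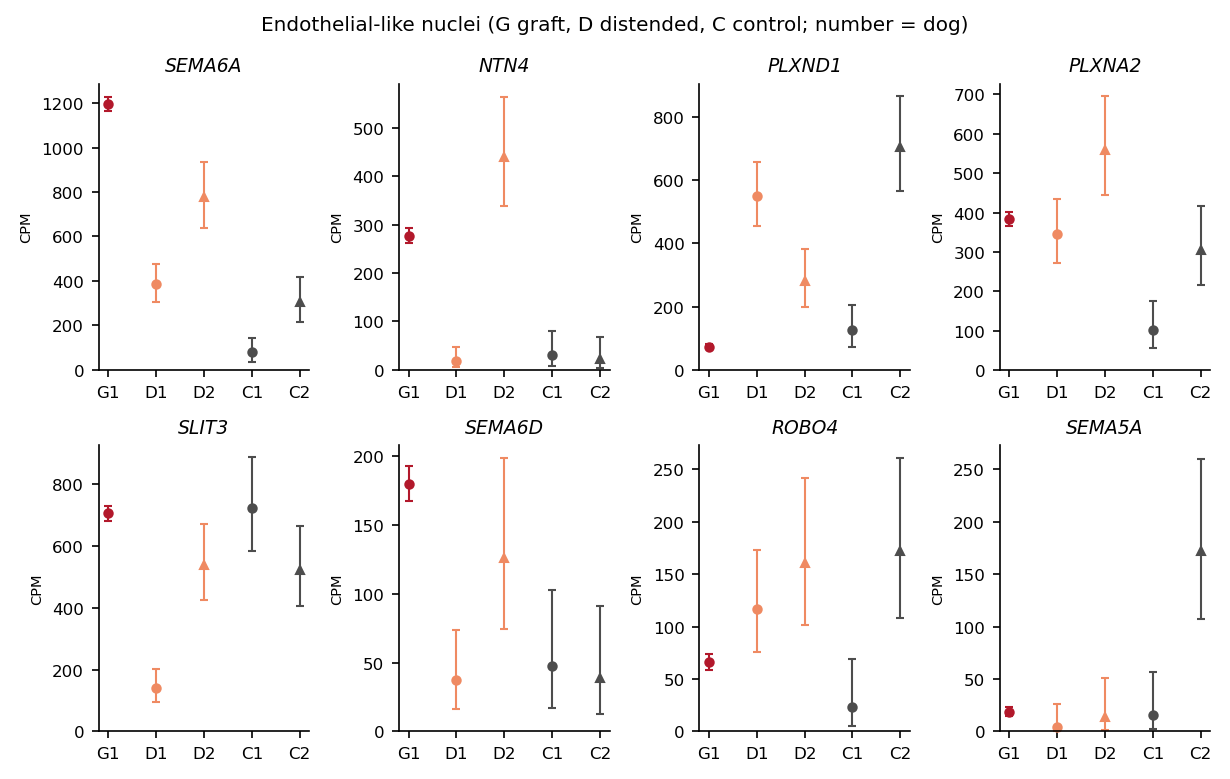
Level of 8 guidance genes in endothelial-like nuclei, in CPM, for the graft (G1), distended dogs 1 and 2 (D1, D2) and control dogs 1 and 2 (C1, C2). Bars are exact 95% counting intervals, which cover counting error only, and for SEMA6A the graft point lies above all others while for PLXND1 it lies below all others.

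Different clusters made up this class in the groups. The graft had 997 of 1063 endothelial-like nuclei in 1 cluster, numbered 15, and distended dog 2 had 25 there. Distended dog 1 had 135 nuclei in cluster 1, distended dog 2 had 114, and control dog 2 had 354 of 355, while control dog 1 had 34 of 46 in cluster 10. Within cluster 1, NTN4 had 11.7 CPM in distended dog 1 from 1 UMI, 572 CPM in distended dog 2 from 42, and 23.8 CPM in control dog 2 from 3. SEMA6A there had 457 and 1063 CPM in distended dogs 1 and 2, and 302 CPM in control dog 2. Within cluster 15, NTN4 had 281.5 CPM in the graft and 351 CPM in distended dog 2, and SLIT3 had 723 CPM in the graft and 685 CPM in distended dog 2. The summed level of the 18 endothelial markers in the class was 8631 CPM in the graft, 16152 and 9784 CPM in the distended libraries, and 15487 and 14508 CPM in the controls. The graft and distended dog 2 were thus both lower than the other 3 libraries on these markers, whose part in the results was not tested.

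Graft against distended vein in endothelial-like nuclei also gave 0 of 16 genes and 0.0% of 7842, with 0 of 16 at an unadjusted p under 0.05, against 3.49% of all genes, and DESeq2 called 0, with 1 at an unadjusted p under 0.05. The median log2 fold change was -0.31, against 0.02. PLXND1 had 73.3 CPM in the graft and 548 and 279.5 CPM in distended dogs 1 and 2 (-2.54, SE 1.28). SEMA3F, a secreted semaphorin that inhibits endothelial growth, had 53.9 CPM in the graft and 126.5 and 139.8 CPM in the distended libraries (-1.31, SE 0.88). SEMA6D had 180 CPM in the graft and 37.5 and 126 CPM in the distended libraries (1.20, SE 0.88). In these genes the graft value lay outside the distended range. For SEMA6D it fell within the counting interval of distended dog 2 (74.6 to 199 CPM). SLIT2 had 167 CPM in the graft, within the 824 and 97.8 CPM of the distended libraries (-1.55, SE 1.40). PLXNC1 had 226 UMIs in the graft and 0 and 3 in distended dogs 1 and 2, a ratio of 6.004 (2.03 to 29.3), which was 2.41 (0.81 to 11.8) without distended dog 1. Neutrophil markers summed to 289 CPM in these graft nuclei, against 3366 CPM in neutrophil-like nuclei of the graft, and their part in the PLXNC1 value was not tested. Each of the 5 genes had an adjusted edgeR p of 1.00.

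In fibroblast-like nuclei, SEMA3B and UNC5C fell in the graft relative to control vein, and SEMA3B fell relative to distended vein. SEMA3B is a secreted class 3 semaphorin known as a growth suppressor, and UNC5C is a netrin receptor. SEMA3B had 1 UMI in the graft (0.581 CPM), 265 and 0 UMIs in distended dogs 1 and 2 (347 and 0 CPM), and 2 and 69 UMIs in control dogs 1 and 2 (225 and 639 CPM). The graft lay below both controls and below distended dog 1, while the count of 0 in distended dog 2 allowed up to 109 CPM. The ratio of pooled counts was 1046-fold lower in the graft than in control (182 to 41894), and the fitted log2 fold change was -9.36 (SE 1.92, adjusted edgeR p 0.0017).

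Against distended vein, SEMA3B was lower in the graft by a ratio of 576 (103 to 22854), with a fitted log2 fold change of -8.26 (SE 1.85, adjusted edgeR p 0.0037). That call rested on distended dog 1: without it, 1 UMI in the graft faced 0 in distended dog 2 and no fold can be given. The call against control rested on control dog 2: without it the adjusted p was 0.359, with 1 UMI in the graft and 2 in control dog 1. With the dog as a block, the fitted value against control was -10.08 (adjusted p 0.123), and that against distended vein was -8.31 (adjusted p 0.0282). SEMA3B was found in all 3 fibroblast-like clusters of distended dog 1, at 288, 385 and 650 CPM in the FNDC1, C7 and SCARA5 clusters, and at 613, 561.5 and 669 CPM in those clusters of control dog 2. The graft had 4 fibroblast-like nuclei in these clusters and 787 in cluster 16, which held 11 nuclei of distended dog 2 and 0 of the other libraries.

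UNC5C in fibroblast-like nuclei had 3 UMIs in the graft (1.74 CPM), 26 and 0 in distended dogs 1 and 2 (34.0 and 0 CPM), and 3 and 5 in control dogs 1 and 2 (337.5 and 46.3 CPM). The graft lay below both controls. The ratio of pooled counts was 39.3-fold lower in the graft than in control (9.43 to 230) and 26.6 (5.17 to 171) without control dog 1, and the fitted log2 fold change was -5.75 (SE 1.63, adjusted edgeR p 0.0309). The call was lost without control dog 1 (adjusted edgeR p 0.196), without control dog 2 (adjusted p 0.532), with the dog as a block (-7.20, adjusted p 0.254), with RLE size factors (-5.46, adjusted p 0.0619) and in DESeq2 (-5.99, adjusted p 0.135). It passed in 6 of the 14 alternatives that gave UNC5C an adjusted p. Against distended vein the graft was lower by a ratio of 18.9 (5.78 to 97.3), with an adjusted edgeR p of 0.101.

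In all, 2 of the 21 guidance genes tested in fibroblast-like nuclei were called between graft and control, both lower, beside 2.5% of 7230 genes called and 2.02% called lower. At an unadjusted p under 0.05 there were 5 of 21, against 12.3% of all genes. Between graft and distended vein 1 of 21 was called, lower, beside 2.78% of all genes called and 1.84% called lower, and 9 of 21 had an unadjusted p under 0.05, against 12.4%. The 21 log2 fold changes of graft against control had a median of -0.86, with 6 positive, against 0.29 for all genes. Those of graft against distended vein had a median of -1.56, with 5 positive, against 0.09. RLE size factors moved the medians of all genes to 0.64 and 0.36, and those of the 21 genes to -0.53 and -1.23. Of all genes called, 35 were higher and 146 lower between graft and control with TMM scaling, and 51 and 106 with RLE; between graft and distended vein they were 68 and 133 with TMM, and 69 and 91 with RLE. The fit gave the spread of each single gene no weight in this class, because it took the value shared among genes of like abundance.

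**Figure D5:**
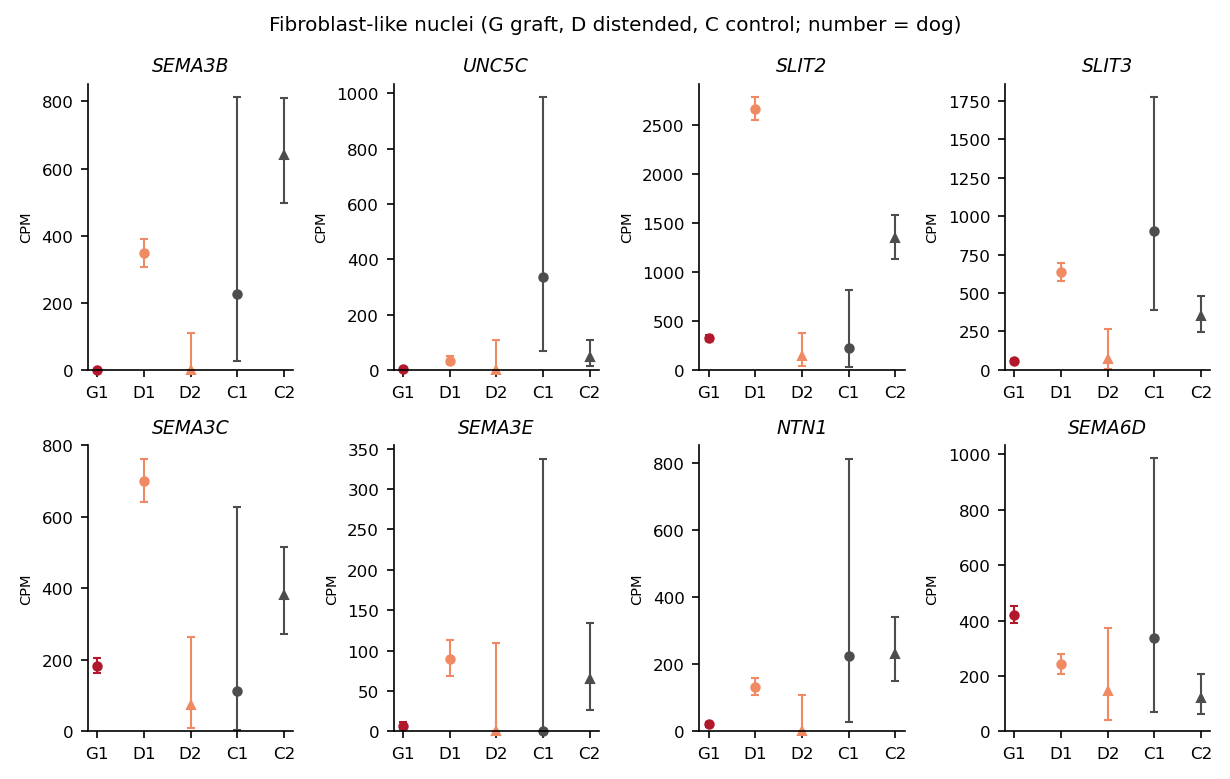
Level of 8 guidance genes in fibroblast-like nuclei, in CPM, for the graft (G1), distended dogs 1 and 2 (D1, D2) and control dogs 1 and 2 (C1, C2). Bars are exact 95% counting intervals, or reach to the level of 3 UMIs where the count was 0, and those of D2 and C1 are wide because these libraries held 50 and 49 such nuclei.

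Other guidance genes of fibroblast-like nuclei did not pass between graft and control. NTN1 had 20.9 CPM in the graft, 132 and 0 CPM in distended dogs 1 and 2, and 225 and 232 CPM in control dogs 1 and 2 (graft over control -3.59 on the log2 scale, SE 1.34, adjusted edgeR p 0.159). SLIT3 had 56.3 CPM in the graft, 636 and 72.8 CPM in the distended libraries, and 900.1 and 352 CPM in the controls (-3.29, SE 1.41, adjusted p 0.265). In both genes the graft lay below both controls. SEMA3E had 6.97 CPM in the graft, 89.02 and 0 CPM in the distended libraries, and 0 and 64.8 CPM in the controls, where the 0 of control dog 1 allowed up to 338 CPM (-3.20, SE 1.41, adjusted p 0.290).

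Against distended vein, the genes with the next smallest p in fibroblast-like nuclei had unlike values in the 2 distended libraries. NTN4 had 13.9 CPM in the graft, against 352 and 36.4 CPM in distended dogs 1 and 2, from 269 and 1 UMIs (-4.28, SE 1.37, adjusted edgeR p 0.0567), and passed without control dog 1 (-4.22, adjusted p 0.0460), beside 4.67% of all genes. SEMA3E was lower in the graft by -3.50 (SE 1.29, adjusted p 0.124), with 0 UMIs in distended dog 2. PLXNC1 was higher in the graft, with 107 UMIs against 0 and 1, by a ratio of 49.2 (8.64 to 1961) that was 1.71 (0.30 to 68.1) without distended dog 1 (adjusted edgeR p 0.124). With the dog as a block, PLXNC1 passed at 7.91 (adjusted p 0.0216) and SEMA7A, with 76 UMIs in the graft and 1 and 0 in the distended libraries, at 4.53 (adjusted p 0.0282), beside 2.31% of all genes. Neutrophil markers summed to 552 CPM in fibroblast-like nuclei of the graft, 10.5 and 364 CPM in those of the distended libraries, and 0 and 130 CPM in those of the controls, and their part in both values was not tested. Without distended dog 2, a library with 50 fibroblast-like nuclei, 8 of the guidance genes were called: PLXNC1, SEMA7A and UNC5B higher, and NTN4, SEMA3B, SEMA3E, SEMA5A and UNC5C lower in the graft. That was 8 of 25 tested, beside 22% of all 10184 genes tested in that fit.

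Distended against control vein in fibroblast-like nuclei gave 0 of 21 genes called and 0.0% of 7230 genes, with 0 of 21 at an unadjusted p under 0.05, against 1.2% of all genes, and DESeq2 called 0. The median log2 fold change was 0.35, against 0.15. NTN4 had 352 and 36.4 CPM in distended dogs 1 and 2 and 0 and 64.8 CPM in control dogs 1 and 2 (2.09, SE 1.13, adjusted edgeR p 1.0). The count of 0 in control dog 1 allowed up to 338 CPM. UNC5C (-1.59, SE 1.25), NTN1 (-1.19, SE 1.00), ROBO1 (1.33, SE 1.14) and SEMA3B (-1.10, SE 0.97) followed, each with an adjusted p of 1.0. Distended dog 2 had 0 UMIs of these 4 genes, which allowed up to 109 CPM, so its place beside the controls could not be set for UNC5C and ROBO1. The summed level of the 16 fibroblast markers in this class was 4430 CPM in the graft, with C7 at 0, 20980 and 8373 CPM in distended dogs 1 and 2, and 15414 and 17259 CPM in control dogs 1 and 2. It moved with the graft in the same direction as SEMA3B and UNC5C, and its part in those values was not tested.

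Whether a change differed between endothelial-like and fibroblast-like nuclei was tested as an interaction over both classes of all libraries, with the library as a covariate. For graft against control, 0 of 27 guidance genes passed, beside 0.135% of 8889 genes, and 4 of 27 had an unadjusted p under 0.05, against 5.07% of all genes; DESeq2 called 0. The change of NTN4 was larger in endothelial-like nuclei by 5.19 on the log2 scale (SE 1.52, unadjusted edgeR p 0.00066, adjusted p 0.158), and was -3.84 without control dog 2. The change of SLIT3 was larger in endothelial-like nuclei by 3.18 (SE 1.18, adjusted p 0.463) and that of NTN1 by 2.63 (SE 1.20, adjusted p 0.826). That of SEMA3B differed by 4.56 (SE 1.91, adjusted p 0.657), with 5 UMIs in the graft, 4 and 0 in the distended libraries and 0 and 8 in the controls among endothelial-like nuclei. SEMA3C differed by 6.45 (adjusted p 1.0), a fitted value set by its counts of 0 in endothelial-like nuclei.

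For distended against control vein, 0 of 27 passed the interaction test, beside 0.0112% of all genes, and 1 of 27 had an unadjusted p under 0.05, against 1.75%; DESeq2 called 0. SEMA5A was that gene, with a change lower in endothelial-like than in fibroblast-like nuclei by -5.03 (SE 1.46, unadjusted edgeR p 0.00059, adjusted p 0.751). In fibroblast-like nuclei SEMA5A had 163 and 0 UMIs in distended dogs 1 and 2 and 0 and 9 in control dogs 1 and 2, so the value rested on distended dog 1. The differences of SEMA3D (-1.92), NEO1 (5.13), SEMA6A (1.07) and PLXNB2 (-1.14) had adjusted p-values of 1.0, and NEO1, the neogenin gene, had 0 UMIs in endothelial-like nuclei of both controls.

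In whole vein, graft against control gave 0 of 37 guidance genes and 0.0% of 13170 genes called, with 3 of 37 at an unadjusted p under 0.05, against 8.82% of all genes. Between graft and distended vein 0 of 37 and again 0.0% were called, with 1 of 37 at an unadjusted p under 0.05, against 5.5%, and DESeq2 called 0 of the 37 in both. The median log2 fold changes were -0.55 against control, where all genes had 0.12, and -0.90 against distended vein, where all genes had 0.01. PLXND1 had 51.1 CPM in the graft, 216 and 161 CPM in distended dogs 1 and 2, and 278 and 401 CPM in control dogs 1 and 2. The graft lay below all 4 other libraries, with log2 fold changes of -2.89 against control (SE 0.93, adjusted edgeR p 0.556) and -1.98 against distended vein (SE 0.89, adjusted p 0.908).

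SEMA3B in whole vein had 7 UMIs in the graft, 283 and 0 in distended dogs 1 and 2, and 11 and 88 in control dogs 1 and 2. Its log2 fold changes were -7.84 against control (SE 2.74, adjusted edgeR p 0.559) and -7.30 against distended vein (SE 2.68, adjusted p 0.900). Without distended dog 1 the value against control was -7.78 and passed, beside 5.29% of all genes called in that fit, and without distended dog 2 it was -7.83 and passed, beside 3.22%. Without distended dog 2 the value against distended vein was -8.25 and passed, beside 3.33% of all genes. DCC, a netrin receptor, had 2.48 CPM in the graft, 11.4 and 21.5 CPM in the distended libraries, and 14.0 and 23.6 CPM in the controls. The graft was the lowest library, by -3.04 against control (SE 1.29, adjusted edgeR p 0.564) and by -2.70 against distended vein (SE 1.27, adjusted p 0.943).

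NTN4 in whole vein had 142 CPM in the graft, above the 32.0 and 50.1 CPM of control dogs 1 and 2 (log2 fold change 1.64, SE 0.75, adjusted edgeR p 0.564). SEMA7A had 354 UMIs in the graft and 0 and 2 in control dogs 1 and 2, a ratio of 13.6 (3.74 to 113) that was 5.51 (1.51 to 45.7) without control dog 1 (adjusted p 0.564). SEMA3D had 16.0 CPM in the graft and 208 and 14.3 CPM in distended dogs 1 and 2, the second from 4 UMIs (-2.98, SE 1.52, adjusted p 0.953), and was called lower without distended dog 2 (-3.84, adjusted p 0.0317), in the fit with 3.33% of all genes called. UNC5C had 11 UMIs in the graft and 29 and 0 in the distended libraries (-3.59, SE 1.85, adjusted p 0.953).

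A list of 81 further genes of these pathways, from coreceptors to effectors on the actin skeleton, was read in the same fits. In fibroblast-like nuclei 53 were tested. Between graft and control, MYO10, a myosin of filopodia, rose and DSCAM and PLXDC1 fell, and between graft and distended vein DSCAM and PLXDC1 fell and 0 rose. These were 3 of 53 beside 2.5% of all genes, and 2 of 53 beside 2.78%. MYO10 had 2965 UMIs in the graft, 20 and 12 in distended dogs 1 and 2, and 0 and 1 in control dogs 1 and 2 (graft over control 7.37 on the log2 scale, SE 1.68, adjusted edgeR p 0.0043). PLXDC1, a plexin-domain receptor, had 2 UMIs in the graft, 140 and 0 in distended dogs 1 and 2, and 3 and 18 in control dogs 1 and 2 (-7.34, SE 1.70, adjusted p 0.0053). DSCAM, which can bind netrin 1, had 1 UMI in the graft, 40 and 0 in the distended libraries, and 0 and 6 in the controls (-6.11, SE 1.80, adjusted p 0.0393). Both genes that fell had 0 UMIs in distended dog 2, as SEMA3B and UNC5C did. MYO10 had 1722 CPM in the graft, 26.2 and 437 CPM in the distended libraries, and 0 and 9.26 CPM in the controls. PLXDC1 had 1.16 CPM, 183 and 0 CPM, and 338 and 167 CPM in the same order. DSCAM had 0.581 CPM, 52.4 and 0 CPM, and 0 and 55.6 CPM. A count of 0 allowed up to 109 CPM in distended dog 2 and up to 338 CPM in control dog 1. Between graft and control, 5 of all 7230 genes were called with the dog as a block. Alternatives for these 3 genes are not given. Of the list, 68 genes were tested in whole vein and 50 in endothelial-like nuclei, and 0 were called in these comparisons; at an unadjusted p under 0.05 there were between 1 and 6 in each, beside shares of all genes between 1.41% and 9.87%. Distended against control in fibroblast-like nuclei also gave 0 of 53, with 1 at an unadjusted p under 0.05.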

How the data were processed

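Nuclei from snap-frozen cephalic vein were profiled with droplet 3' RNA-seq, per the labels' protocols, and Cell Ranger 7.0.0 is named in the submitters' processing notes. No source used here names the genome build. The authors deposited raw UMI counts per gene and barcode. Nuclei with at least 100 detected genes were kept (6855 of 7391 barcodes), and 24 features with no gene assigned, which held 0.588% of UMIs in the graft, 5.22% and 5.42% in the distended and 7.70% and 11.5% in the control libraries, were left out.

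Nuclei were clustered with scanpy 1.11.5 (2000 variable genes without the guidance genes, 20 components, 15 neighbours, Leiden resolution 0.8), and clusters were named from marker lists. The limits for naming were set after the data were seen, and 6 of 18 clusters stayed unnamed. A doublet caller marked 25 nuclei (0.365%), too few to count as having worked, so doublets were not removed.

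UMIs were summed per library and class and tested with edgeR 4.0.16 (R 4.3.3; TMM, filterByExpr, quasi-likelihood, two-sided, adjusted p of 0.05 over all genes tested in a comparison), with all 5 libraries in 1 fit. The filter kept 37 of the 48 genes in whole vein, 21 in fibroblast-like and 16 in endothelial-like nuclei. Fold changes and tests are given for called genes and for the 5 with the smallest p in each of 11 comparisons. Ratios of pooled counts are given for guidance genes where a group held 3 UMIs or fewer, and not for the wider list. Counting intervals and limits for 0 UMIs cover counting error only. The statistical steps were tested on simulated data with known changes in well-counted genes. That simulation had no dog effect and no differences in makeup, so it does not bear on calls from few UMIs. DESeq2 1.42.0, other scalings, filters, clusterings and left-out libraries were tried as alternatives. Samples of the same dog are paired by the labels. The differences between dog 1 and dog 2 in distended and in control vein correlated across genes at -0.33 in whole vein, 0.05 in endothelial-like and 0.03 in fibroblast-like nuclei. The members and lists were chosen with earlier results of these data known. A gene of the wider pathway list is not reported here. Names of all 48 genes matched RefSeq.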

Additional observations from a re-analysis of the deposited data

How the results depend on the processing

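Depth limits the class comparisons, since distended dog 2 and control dog 1 held 50 and 49 fibroblast-like nuclei and control dog 1 held 46 endothelial-like nuclei. Of 161 counts of called guidance genes under the alternatives, 136 were within 1.5 times the main count and 25 were not. Counts of 0 that stayed 0 are among the 136. The main fit called guidance genes only in the graft comparisons of fibroblast-like nuclei, so the 136 say little about the calls. Graft against control in fibroblast-like nuclei (2 called) gave 1 with DESeq2, RLE size factors, at least 200 genes per nucleus, no filter on low counts, or the 4 dominant features left out, 0 with the dog as a replicate block, and between 0 and 2 with 1 library left out. Graft against distended vein in fibroblast-like nuclei (1 called) gave 2 with at least 200 genes per nucleus or nuclei classed singly by markers. It gave 4 with no filter, 3 with the replicate block, 8 with doublets removed, and between 0 and 8 with 1 library left out. With doublets removed, distended dog 2 had 11 fibroblast-like nuclei in place of 50, under the limit of 20. Only 1 of its nuclei was marked as a doublet. Its unnamed nuclei went from 29 to 74, so the classes changed beyond the removal itself. In whole vein (0 called), graft against control gave 1 with no filter and between 0 and 1 with 1 library left out, graft against distended vein gave 1 with no filter and between 0 and 2 with 1 library left out, and distended against control gave between 0 and 2 with 1 library left out. Graft against control in endothelial-like nuclei (0 called) gave 1 with the replicate block. The replicate block changed no other call, and the interaction gave 0 without it. A crossed pairing of the dogs in whole vein, chosen after seeing the data, called 0 between distended and control, 1 between graft and control, and 0 between graft and distended vein.

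Over all genes, graft against control in fibroblast-like nuclei called 181, with 5 under the block, 52 in DESeq2 and 25 with no filter, and graft against distended vein called 201, with 28 in DESeq2, 1319 with no filter, 0 without distended dog 1 and 2245 without distended dog 2. In endothelial-like nuclei, graft against control called 0, with 169 under the block, 125 in DESeq2, 165 with no filter and 72 with the unnamed clusters 0 and 4 counted in, where 0 guidance genes were called. In whole vein, where 0 genes were called in each comparison, distended against control called 209 without distended dog 1, graft against control 643 in that fit and 437 once distended dog 2 was dropped instead, and graft against distended vein 6 and 451 in the same fits.

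For genes named with a fold change, 735 of 781 values kept their direction and side of the threshold, 21 passed newly, 10 no longer passed and 15 reversed. Most of these genes were not called in the main fit, so keeping their side mostly meant staying uncalled. Of the called genes in fibroblast-like nuclei, SEMA3B passed in 13 of 15 alternatives against control and in 14 of 15 against distended vein. UNC5C passed in 6 of 14 against control. The cause of the reversals was not tested. With 1 library left out, log2 values for distended against control ranged between -0.69 (without distended dog 2) and 3.60 for NTN4 in endothelial-like nuclei, between -2.61 and 2.65 (without control dog 2) for PLXNC1 and between -1.33 (without distended dog 1) and 2.62 for ROBO1 in whole vein, and between -10.90 and 0.75 (without control dog 2) for SEMA3B in fibroblast-like nuclei. For graft against distended vein they ranged between -9.12 and 1.66 for SEMA3B in fibroblast-like nuclei, between -8.25 and 4.03 for SEMA3B and between -3.84 and 0.18 for SEMA3D in whole vein, and between -2.42 and 0.81 for SLIT2 in endothelial-like nuclei, each reversed without distended dog 1. For graft against control SEMA3E in fibroblast-like nuclei ranged between -3.47 and 5.09 and the NTN4 interaction between -3.84 and 5.78, both reversed without control dog 2. The distended-against-control interaction ranged between -11.21 and 5.40 (without distended dog 1) for SEMA5A and between -5.79 and 5.26 (without control dog 1) for SEMA3D, and for NEO1 it was -0.54 at Leiden resolution 0.4, -1.11 with nuclei classed singly and -1.68 without the dominant features.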
